A study of Homo sapiens with 18 samples.

Results

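miR-340 is a microRNA whose hairpin lies in an intron of RNF130, a gene for a RING finger protein. Its counts were followed across 18 small RNA libraries of HEK293T cells, a line from human embryonic kidney, in which SSB had been knocked down or not. La, the SSB product, is an RNA chaperone of new RNA polymerase III transcripts, whose 3′ ends it binds. Transfection lasted 48 h and used an siRNA to SSB (siSSB) or, in the control, a scramble siRNA. Libraries were made of total RNA and of the RNA of nuclear (nuc) and cytoplasmic (cyto) fractions, with 3 replicates in each of the 6 groups, and every library was labelled as prepared with PNK. The members were all rows of at most 500 nt that name MIR340 in the table of counts. This found 2 of 175935 rows. One spans the hairpin and is 148 nt long, and the other spans the 5′ arm and is 72 nt long. Both held the same count in every library, so they were treated as 1 measurement, called MIR340 here. No row above that length named MIR340, and no other row overlapped the hairpin. The gene was chosen by its measured level in total RNA, which was higher in siSSB than in control libraries. The values of that comparison are therefore given as a description with no test.

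A microRNA is cut from a hairpin. For most intronic microRNAs, the hairpin is released from the host transcript in the nucleus by Drosha and exported, then Dicer cuts away the loop in the cytoplasm. A strand of the resulting duplex is loaded into an Argonaute protein, and the seed, which is bases 2 to 8, pairs with target mRNAs. Mature microRNAs are thus mainly cytoplasmic.

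The sequences from the RefSeq table (GRCh38.p14) show which reads the MIR340 rows could hold. The hairpin is on chromosome 5, 180015303 to 180015397, minus strand, and its 95 bases are given with both mature arms in capitals. In the arm sequences the capitals mark the seed.
MIR340 hairpin: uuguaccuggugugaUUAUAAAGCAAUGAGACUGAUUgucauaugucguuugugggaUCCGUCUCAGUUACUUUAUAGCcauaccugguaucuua
hsa-miR-340-5p: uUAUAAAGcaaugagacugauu
hsa-miR-340-3p: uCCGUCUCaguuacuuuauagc

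Both arms are 22 nt long. The 5p arm is at 180015361 to 180015382 and the 3p arm at 180015319 to 180015340, and a stretch of 20 nt separates them. In the fold predicted by RNAfold, of −35.8 kcal/mol, 16 of the 22 bases of the 5p arm paired with the 3p arm. No other mature microRNA of the 2370 in the RefSeq table shares the 5p seed, and 1, hsa-miR-6827-3p, shares the 3p seed. The 5p arm is poor in G and C: they make up 27.3% of its bases, and 1.35% of mature microRNAs have a lower share. The 3p arm has 40.9%, and the median of all mature microRNAs is 52.2%. Each arm has 1 exact match in hg38, so reads of the full mature length have a single genomic origin.

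The hairpin row runs from 180015278 to 180015425 (hg38) and the arm row from 180015336 to 180015407, so each carries flanks of 25 nt or more. The arm row is the 5p arm with 25 nt on either side, and it reaches 5 bases into the 3p arm. Whether a read that reaches into a row by so few bases was counted is not stated. The counts therefore cannot be split into arms, and a value for MIR340 below means reads of the hairpin locus. In GENCODE the hairpin lies in intron 2 of RNF130 (chromosome 5, 179911651 to 180072113, minus strand), 25055 nt after the upstream exon and 1991 nt before the next exon. It is on the strand of its host and overlaps no exon. The 10 other rows inside RNF130, looked up after the MIR340 values were seen, were long noncoding RNAs. The highest of them held 51 counts over all 18 libraries, against 7255 for MIR340. The table had no row for RNF130 mRNA, so the host's level was not measured.

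Some properties of the libraries touch every value below. Column sums ran from 21565995 to 158244813 counts and count reads in overlapping rows more than once, and they were largest in nuc libraries. The sum over microRNA rows was 34577 to 279191 counts. SSB mRNA had no row of its own, so siSSB names libraries by their label. HSALNG0020274, a noncoding row over SSB exons, went up, from 12 to 19 counts in the control total libraries to a range of 547 to 1267 counts in siSSB total. It held 25 to 32 counts in control cyto and 983 to 3304 in siSSB cyto, and 1 to 5 in control nuc and 5 to 14 in siSSB nuc. What these reads come from was not tested, so they give no level of SSB mRNA. Mitochondrial tRNA counts were 18.3% to 41.4% of the snoRNA counts in control cyto and 39.4% to 58.6% in siSSB cyto libraries. In nuc libraries they were 0.270% to 0.404%. They were 1.95% to 4.28% in total libraries, highest in siSSB total replicate 2, which also had the highest MIR340 level of the total libraries. Control cyto replicate 3 had the lowest value of the cyto libraries. A set of 10 microRNAs of HEK293T cells made up 16.8% to 20.7% of microRNA counts in cyto and total libraries, and 4.94% to 7.70% in nuc libraries. A set of 11 microRNAs of liver, muscle, blood, neuron and endocrine cells stayed at or below 0.181%, with MIR223, MIR451A and MIR124-1 at 0. The highest of this set were MIR9-1, a neuron marker with 1376 counts over all libraries, and MIR375, an endocrine marker with 655.

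MIR340 was read in every library, at 10 counts or more. For replicates 1, 2 and 3 of total RNA, control libraries had 92, 89 and 127 counts, while siSSB libraries had 368, 620 and 391. In the cytoplasm the counts were 879, 810 and 422 in control cells and 868, 573 and 1916 in siSSB cells. In the nucleus the counts were 10, 19 and 20 in control and 13, 17 and 21 in siSSB cells. Counts were thus low in both nuclear groups, high in both cytoplasmic groups and intermediate in control total. The siSSB cyto libraries spread the most, and their replicate 3 stood above every other library.

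To set the groups side by side, counts were scaled with 1 set of TMM factors over all 18 libraries and given as CPM, a share of the scaled column sum. From low to high the levels were 0.503 ± 0.173 CPM in siSSB nuc, 0.569 ± 0.236 CPM in control nuc, 1.65 ± 0.235 CPM in control total, 6.56 ± 0.753 CPM in siSSB total, 7.08 ± 3.43 CPM in control cyto and 10.3 ± 7.19 CPM in siSSB cyto (SD, n = 3 each). The ranges of the 2 nuclear groups overlapped, as did those of the 2 cytoplasmic groups. The siSSB total group overlapped control cyto, while control total overlapped neither control nuc nor siSSB total. The order depended on the scale, and with counts taken relative to the microRNA total the siSSB total group came highest.

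**Figure D1:**
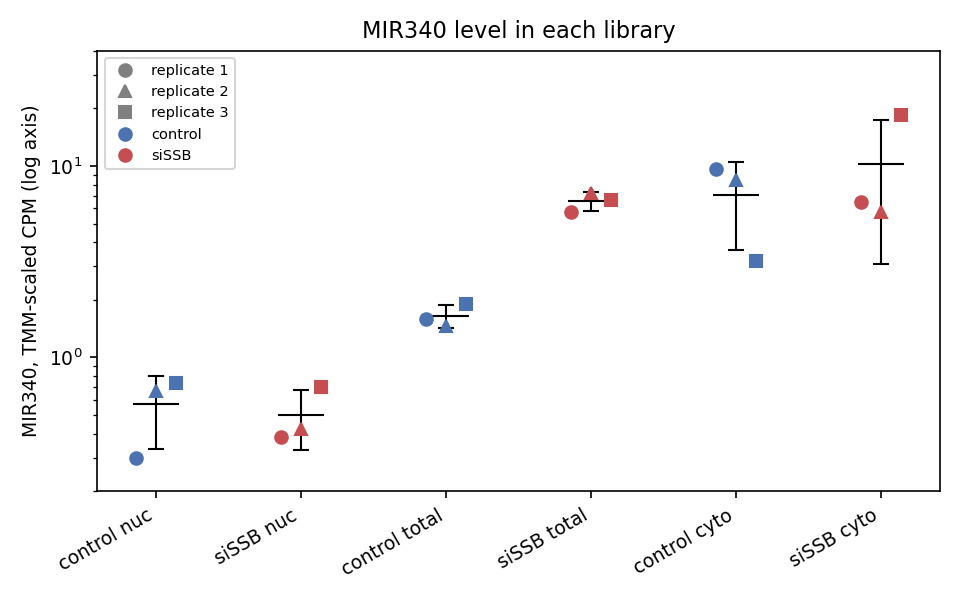
MIR340 level in each of the 18 libraries, in CPM scaled with TMM factors over all libraries, on a log axis. Points are replicates, and the bar and whiskers are the mean and SD of each group; the 3 siSSB total points lie above the 3 control total points, while control and siSSB points mix in nuc and in cyto.

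In total RNA, the comparison that picked the gene, MIR340 went from 1.60, 1.41 and 1.84 CPM in control to 5.98, 7.45 and 6.09 CPM in siSSB libraries, scaled over these 6 libraries. All 3 siSSB values lay above all 3 control values. The log2 fold change was 2.01 ± 0.23 (SE), which is 4.01-fold. Of all 13883 rows tested in this comparison 0.367% were called higher, and their median log2 fold change was −0.01. Over the 197 microRNA rows tested the median was 0.75, and 3 rows had a larger value than MIR340. The microRNA total of the siSSB total libraries, 64955 to 111049 counts, was above that of the control total libraries, 41023 to 49678 counts. The snoRNA total was 1418689 to 2544187 counts in siSSB total and 2390259 to 3493351 counts in control total libraries. MIR340's value was smaller where libraries were scaled to the microRNA total, 1.35, and larger where they were scaled to the snoRNA total, 2.78. Without siSSB total replicate 2 it was 1.995.

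The same knockdown was compared in the nuclear fraction, which the choice of gene had not used. MIR340 was at 0.0712, 0.165 and 0.192 CPM in control nuc and at 0.103, 0.123 and 0.192 CPM in siSSB nuc, scaled over these 6 libraries. The groups overlapped. The log2 fold change was −0.02 ± 0.41 with an adjusted p of 0.982 (edgeR, quasi-likelihood, Benjamini-Hochberg), where 0.378% of 6873 rows were called. A range of 2 SE on either side ran from −0.84 to 0.80, with 10 to 21 counts per library. It is not the detection limit of the test, since the p was adjusted over 6873 rows. Changes of that size, and some larger ones, could have gone uncalled. The sign changed with the scaling: with column sums as the sole scale it was 0.31.

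In the cytoplasmic fraction MIR340 was at 35.8, 36.2 and 11.6 CPM in control and at 27.7, 21.2 and 68.1 CPM in siSSB libraries. The third replicate was the lowest library of the control group and the highest of the siSSB group. The log2 fold change was 0.49 ± 0.51, with an adjusted p of 0.915 by the same edgeR test, where 0.291% of 18921 rows were called. A range of 2 SE on either side ran from −0.54 to 1.52. Without siSSB cyto replicate 3 the log2 fold change was −0.20, and without control cyto replicate 3 it was 0.17. The microRNA total of siSSB cyto replicate 3 was 279191 counts, the highest of all libraries, and its part in this value was not tested.

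The nuclear and cytoplasmic responses were also compared in 1 fit over the 12 fraction libraries. The nuclear log2 fold change minus the cytoplasmic was −0.70 ± 0.63 (adjusted p = 0.971, edgeR quasi-likelihood test), where 0.0133% of 37493 rows were called. A difference between the fractions was thus not detected. Whether the change in total RNA differed from that in either fraction was not tested, since the total libraries chose the gene. Their values stand side by side as log2 fold changes of 2.01, −0.02 and 0.49 in total, nuc and cyto.

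MIR340 was lower in the nuclear than in the cytoplasmic fraction of both control and siSSB cells. In control cells it was at 0.276, 0.610 and 0.712 CPM in nuc and 7.99, 7.80 and 2.60 CPM in cyto libraries, with no overlap. The log2 ratio of nuc to cyto was −3.54 ± 0.43 (adjusted p = 4.71e-08, edgeR quasi-likelihood test), where 14.1% of 26774 rows were called lower. In siSSB cells it was at 0.460, 0.492 and 0.832 CPM in nuc and 7.43, 6.06 and 20.02 CPM in cyto libraries, again with no overlap. The log2 ratio was −4.24 ± 0.46 (adjusted p = 3.67e-08, same test), where 14.5% of 26274 rows were called lower. The microRNA rows as a class were lower too, with medians of −3.02 over 277 rows in control and −3.45 over 274 rows in siSSB cells, and 180 and 198 of these rows had a larger (less negative) value than MIR340.

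These nuclear ratios rested on the scale. Relative to library size alone the log2 ratio was −7.75 in control and −8.09 in siSSB cells. Relative to the total of microRNA rows that overlap no other RNA class and lie outside rDNA, a scale chosen after the data were seen, it was −0.79 (adjusted p = 0.163) in control and −1.14 (adjusted p = 0.0523) in siSSB cells. On that scale neither passed the threshold of 0.05, and the median over all rows was 2.23 in control and 2.64 in siSSB cells.

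**Figure D2:**
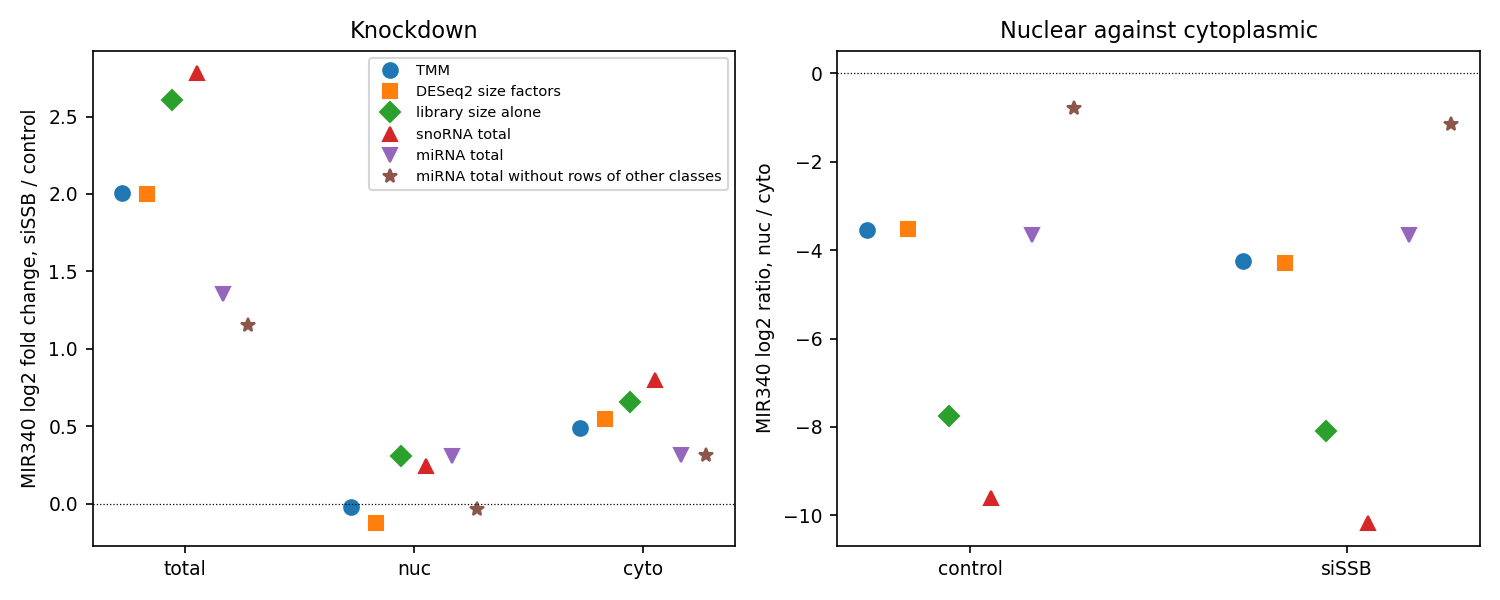
Log2 fold change of MIR340 on knockdown in total, nuc and cyto RNA (left) and log2 ratio of nuc to cyto in control and siSSB cells (right) under 6 scalings of the libraries. The total value stays between 1.15 and 2.78, the nuc value crosses 0, and the nuc to cyto ratios run from −10.17 to −0.79.

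A share of the microRNA counts of the same library needs no scaling factor from other RNA classes, though some rows of its denominator overlap such classes. MIR340 made up 0.190%, 0.217% and 0.256% of microRNA counts in control total and 0.567%, 0.558% and 0.567% in siSSB total libraries. Its rank among microRNA rows was 55 to 63 in control total and 33 or 34 in siSSB total. In cyto libraries the share was 0.506%, 0.516% and 0.307% in control and 0.443%, 0.527% and 0.686% in siSSB cells, with ranks of 37 to 52 and 30 to 38. The siSSB total shares thus lay within the range of the siSSB cyto shares, while the control total shares lay below every control cyto share. The replicates of siSSB total were close, with a mean of 0.564% ± 0.00475 (SD, n = 3) against 0.221% ± 0.0331 in control total.

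In nuc libraries MIR340 made up 0.0234%, 0.0418% and 0.0400% of microRNA counts in control and 0.0346%, 0.0368% and 0.0607% in siSSB cells. The 10 of 42780 counts of control nuc replicate 1 have a 95% Wilson interval of 0.0127% to 0.0430%, which covers counting error only. Over the nuc and cyto libraries together the siSSB share exceeded the control share by 0.0589 percentage points (p = 0.33, exact two-sided permutation test within fractions, smallest possible p 0.005). Within nuc alone the exact permutation p was 0.6, and within cyto alone it was 0.4. With 3 libraries against 3 neither can fall below 0.1.

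The denominator was then changed, because some rows named as microRNAs need not hold microRNA reads. The microRNA row of highest count was MIR1291, which overlaps the snoRNA gene SNORA2C. Without it the microRNA total of control nuc replicate 1 was 11972 instead of 42780 counts. In control cyto replicate 1 it was 173374 instead of 173547 counts. With 12 microRNA rows that overlap other classes and 10 rows in rDNA left out of the total, the mean MIR340 share was 0.294% ± 0.116 in control nuc and 0.285% ± 0.0630 in siSSB nuc (SD, n = 3). On this denominator control total was at 0.303% ± 0.0394 and siSSB total at 0.674% ± 0.0534. The cyto shares were 0.507% ± 0.0922 in control and 0.629% ± 0.0975 in siSSB cells. The ranges of control nuc and control total thus overlapped, and the nuclear and cytoplasmic shares lay closer together than with all microRNA rows. The difference over the fractions was 0.0564 percentage points (p = 0.33, exact permutation test).

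**Figure D3:**
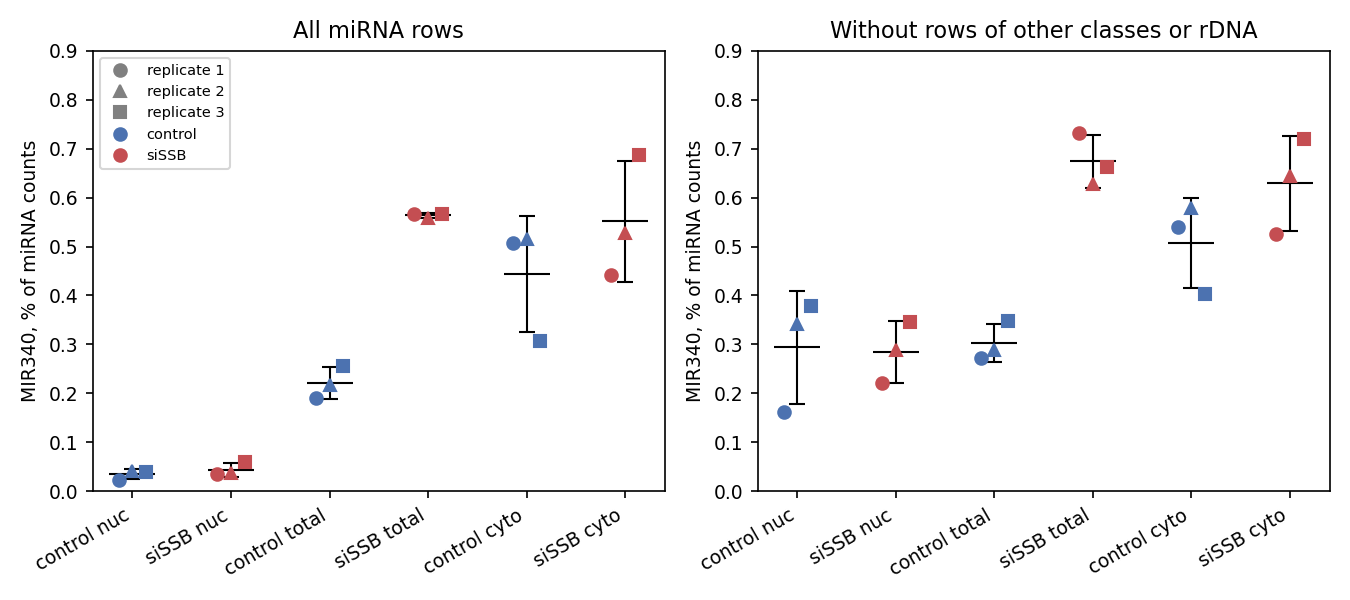
MIR340 as a percent of all microRNA counts (left) and of microRNA counts without rows that overlap other RNA classes or lie in rDNA (right), per library. Points are replicates, and the bar and whiskers are the mean and SD; the siSSB total points lie above the control total points on both denominators, and the nuclear points run from 0.0234% to 0.0607% on the left and from 0.162% to 0.378% on the right.

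MIR340 was set beside 58 other microRNA hairpins that lie in introns of protein coding genes, a list from general knowledge. Of these, 57 had a count in some library, and MIR211 had none. In total RNA 42 passed the filter on low counts. By the edgeR test 9 were higher in siSSB, where 0.367% of all rows were, none was lower and 33 did not pass. Of all 197 microRNA rows tested 17 were higher and 0 lower. The median log2 fold change of the list was 0.99, against 0.75 over the microRNA rows and −0.01 over all rows. The list holds 4 pairs of hairpins with the same mature sequence, which share reads and are not separate cases. With such a pair counted once, 8 were higher. This count shares the comparison that chose MIR340 and is a description, and it fell to 0 without control total replicate 2 and to 1 without control total replicate 3. At an unadjusted p under 0.05 there were 32. All 42 values were above 0, from 0.12 to 1.56. All were below that of MIR340, but MIR340 was picked by its level in this comparison, so its rank here is no test. Relative to the microRNA total without rows of other classes, the list median was 0.11, MIR340 stood at 1.15 and 0 of the list were called in either direction. Over all rows the median on that scale was −0.87, and 9 of 13883 rows were called higher and 6007 lower.

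**Figure D4:**
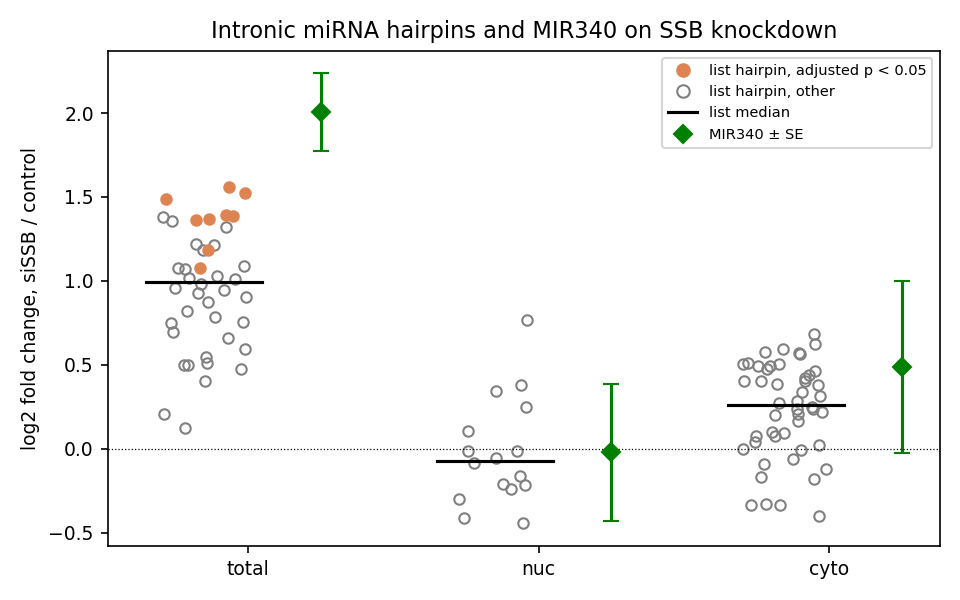
Log2 fold change of siSSB over control for the intronic microRNA hairpins tested (circles, filled where the adjusted p is under 0.05) and for MIR340 (diamond with SE) in total, nuc and cyto RNA. Black lines are list medians of 0.99, −0.07 and 0.26. MIR340 lies above every list hairpin in total RNA, the comparison that picked it, and among them in nuc and cyto.

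The largest increases of the list in total RNA were in MIR101-2, MIR191 and MIR23B. MIR101-2 had 14, 10 and 16 counts in control and 27, 71 and 36 in siSSB (log2 fold change 1.56 ± 0.32, adjusted p = 0.0368, edgeR), and its mature sequence has a second gene, so its reads are shared. MIR191, in DALRD3, had 259, 346 and 275 counts in control and 586, 1574 and 755 in siSSB (1.52 ± 0.29, adjusted p = 0.0304, edgeR). MIR23B, in AOPEP beside MIR27B and MIR24-1, had 10, 9 and 8 counts in control and 22, 29 and 33 in siSSB (1.49 ± 0.33, adjusted p = 0.0491, edgeR). The siSSB counts of each were above its control counts.

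Further hairpins of the list are given whether or not they changed. MIR30E, in NFYC, had a log2 fold change of 1.39 ± 0.30 in total RNA, MIR26B, in CTDSP1, 1.37 ± 0.29, and MIR103A2, in PANK2, 1.08 ± 0.23, and all 3 were called. MIR103A1, which gives the same mature microRNA as MIR103A2 and shares its reads, was at 0.82 ± 0.26 and was not called (adjusted p = 0.129, edgeR). MIR15B, in SMC4, had 1.09 ± 0.34, MIR301A, in SKA2, 0.96 ± 0.55, MIR186, in ZRANB2, 0.90 ± 0.24, MIR423 0.66 ± 0.28, MIR93, in MCM7, 0.50 ± 0.24, and MIR7-1, in HNRNPK, 0.40 ± 0.27, and none of these passed. Their values all lay below that of MIR340, which was picked by its level in this comparison.

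In the fractions no list hairpin was called between siSSB and control cells, which at the low share of calls over all rows says little of the list. In nuc, where 0.378% of all rows were called, 16 list hairpins were tested and 0 were called, with 0 at an unadjusted p under 0.05 and 0 by DESeq2, and the median log2 fold change was −0.07 against 0.08 over all rows. In cyto, where 0.291% of all rows were called, 48 were tested and 0 were called, with 0 at an unadjusted p under 0.05 and 0 by DESeq2, and the median was 0.26 against 0.01 over all rows. MIR340, at −0.02 and 0.49, had 7 list hairpins above it in nuc and 11 in cyto. MIR191 was at 0.38 ± 0.35 in nuc and 0.63 ± 0.51 in cyto, and MIR30E at −0.44 ± 0.34 and 0.25 ± 0.58.

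Between the fractions the list went the way of MIR340. In control cells 45 of 47 hairpins tested were lower in nuc, against 14.1% of all rows, and none was higher. Of all 277 microRNA rows tested there, 197 were lower and 20 higher. The median log2 ratio of the list was −3.27, against −3.02 over the microRNA rows and −0.27 over all rows. In siSSB cells 47 of 48 were lower, against 14.5% of all rows, and none was higher, with a median of −3.67 against −0.19. Of 274 microRNA rows 214 were lower and 19 higher in siSSB cells, with a median of −3.45. Being lower in nuc was thus common to most microRNA rows. With hairpins of no nuclear count set to the bound that 3 counts per library allow, the list medians were −3.17 and −3.59. On the scale of microRNA rows without other classes 10 were lower in control cells, and in siSSB cells 10 were lower and 1 was higher. Of all 26774 rows 358 were lower and 15949 higher on that scale in control cells. In siSSB cells 271 of 26274 rows were lower and 18344 higher. The list medians there were −0.56 and −0.52, against 2.23 and 2.64 over all rows. MIR340, at −3.54 and −4.24, had 28 of the control and 35 of the siSSB list hairpins above it.

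Of the hairpins that fell most, MIR628 and MIR204 had no count in the control nuc libraries, and MIR877 had none in the siSSB nuc libraries. MIR628 held 32, 33 and 20 counts in control cyto and was at least 2.56-fold lower in nuc, and MIR204 held 14, 12 and 12 counts and was at least 1.11-fold lower. MIR877 held 107, 54 and 49 counts in siSSB cyto and was at least 6.41-fold lower in nuc. These bounds are set by the floor of 3 counts per library. MIR23B held 0, 1 and 0 counts in control nuc and 67, 39 and 17 counts in control cyto, and its cyto level was 31.2 times its nuc level with a 95% exact counting interval of 5.50 to 1243. In siSSB cells MIR1301 held 4, 0 and 1 counts in nuc and 432, 313 and 513 in cyto (log2 ratio −6.12 ± 0.58). MIR330 held 0, 1 and 2 counts in siSSB nuc and 139, 113 and 272 in siSSB cyto, a level 50.1 times as high with an interval of 17.1 to 243.7. MIR340 held 13 to 21 counts in the siSSB nuc libraries. The hairpins above were picked for the largest falls, and 35 of the 48 list hairpins tested in siSSB cells had a less negative ratio than MIR340.

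For the 10 hairpins given whether or not they changed, the control log2 ratios ran from −4.12 for MIR186 to −2.06 for MIR301A, and all 10 were lower in nuc. In siSSB cells they ran from −4.47 for MIR191 to −2.27 for MIR15B, and all 10 were lower again. A difference between the nuc and cyto responses to knockdown was called in 0 of 51 list hairpins (4 at an unadjusted p under 0.05, 0 by DESeq2). Of all 37493 rows 0.0133% were called, so this count says little of the list.

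The rows whose levels followed MIR340 most closely over the 18 libraries were microRNAs. Of 112 microRNA rows with a mean of at least 50 counts, those with the highest Pearson r on log2(CPM + 0.5) were MIR424 (0.980), MIR191 (0.977), MIR26A1 (0.975), MIR26A2 (0.974) and MIR30E (0.972). MIR26A1 and MIR26A2 give the same mature microRNA and share reads. Among 822 rows of any kind up to the length limit the first 5 were MIR424, MIR191, MIR106B (0.975), MIR26A1 and MIR26A2. This MIR106B row is a shorter row inside the MIR106B hairpin row. It was not among the 112, which hold 1 row per locus. The 18 points share their library factors and fall into 3 kinds of RNA with different levels, which raises r for any row that is low in nuc and high in cyto. Between control total and siSSB total, MIR424 went from a mean of 1.11 to 3.05 CPM, MIR191 from 4.76 to 13.5 CPM and MIR30E from 1.89 to 4.88 CPM, while MIR340 went from 1.65 to 6.56 CPM.

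**Figure D5:**
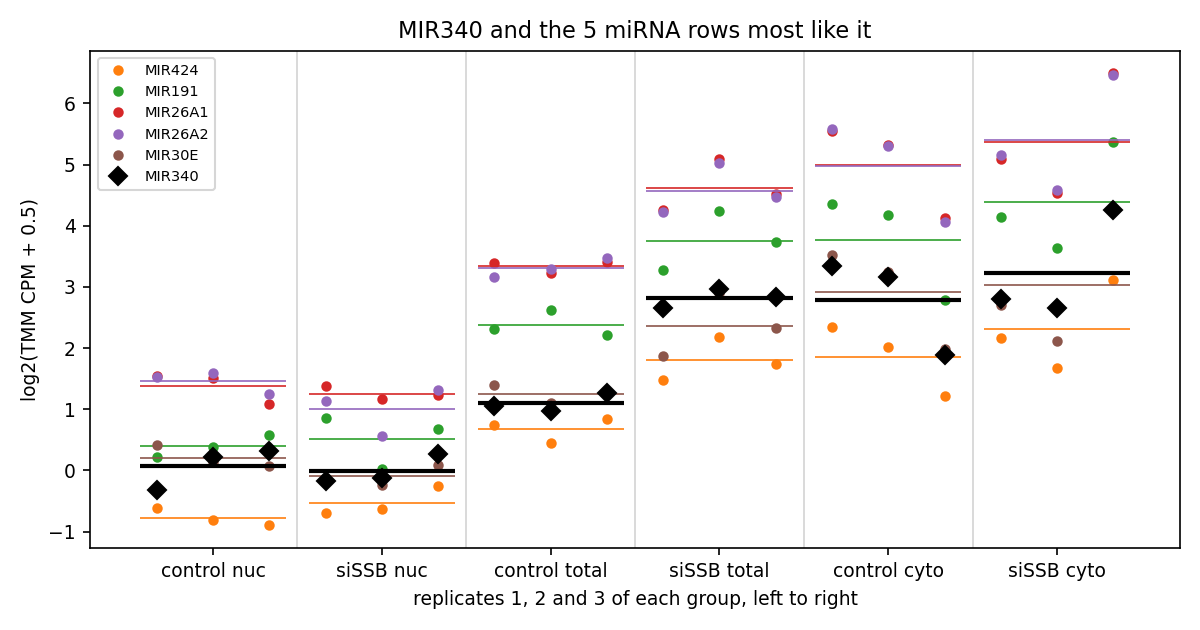
Levels of MIR340 and of the 5 microRNA rows most like it, with 1 row per locus, as log2(CPM + 0.5) with TMM factors over the 18 libraries. Points are replicates and lines are group means; all 6 rows are lowest in nuc, and in control cyto replicate 3 each is below the other 2 replicates.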

How the data were processed

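Small RNA-seq libraries of HEK293T cells had been made with a commercial small RNA kit from RNA extracted with a kit that separates nucleus and cytoplasm, per the labels. What the authors deposited is 1 table of unnormalized counts of reads per noncoding RNA row, and their processing notes name Bowtie2, bedtools and hg38. The study's methods give trimming and tool versions for its other data types, and for these libraries versions, trimming, the handling of reads with several positions and the use of strand are not given in the sources used here. The 25 nt flanks of rows were checked against RefSeq arms, and 1658 of 2545 arms had a row with both. A read inside overlapping rows counts in each. No molecular identifiers were described, so intervals and floors cover counting error only.

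Groups and replicate numbers came from the sample titles. Per the study's methods the replicates were biological, so p-values rest on the spread between 3 such samples per group. Tests used edgeR 4.0.16 (limma 3.58.1, R 4.3.3) on these counts: TMM factors, filterByExpr, group means, glmQLFit and glmQLFTest, and Benjamini-Hochberg adjustment over all rows tested at 0.05. Column sums served as library sizes. SEs are those implied by the F statistic. The code was tested on simulated data. Shares of the microRNA total, with 1 row per locus and rows of identical counts taken once, were compared by exact permutation (scipy 1.17.1). Folding used RNAfold 2.7.2. Alternatives were DESeq2 1.42.0 as test and as size factors, library size alone, the microRNA and snoRNA totals, no filter beyond 1 count, identical rows once, the replicate block and leaving out each library. The microRNA total without rows of other classes was added after the data were seen.

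The replicate numbers may pair samples of different fractions. Deviations of same-numbered samples correlated at 0.148, 0.224 and 0.192 between control nuc and control cyto. In siSSB cells they correlated at −0.023, 0.171 and 0.061, and between siSSB nuc and control nuc at −0.282 to 0.345. Correlations of this size do not settle whether a number marks a pair, and the labels do not say what a number shares. The main tests took the libraries as unpaired, with the replicate block as an alternative. No replicate pair agreed within sampling noise, with a chi-square per degree of freedom of at least 8.98.

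The member, the list of intronic microRNAs and the markers were chosen with earlier results of these data known. From the list the text names, per comparison, up to 3 rising and 3 falling hairpins with the largest log2 change among those with an adjusted p under 0.05, and 10 hairpins (MIR7-1, MIR15B, MIR26B, MIR30E, MIR93, MIR103A2, MIR186, MIR191, MIR301A and MIR423) whatever their values. The rows most like MIR340 are the first 5 by Pearson r over 18 libraries among rows with a mean of at least 50 counts.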

Additional observations from a re-analysis of the deposited data

How the results depend on the processing

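MIR340's log2 fold change in total RNA was above 0 under all 15 alternatives. It moved by more than the replicate SD under library size alone (2.61), the microRNA total (1.35), the snoRNA total (2.78) and the microRNA total without rows of other classes (1.15), and ran from 1.90 to 2.09 with a library left out. In nuc no alternative passed the threshold, but the sign was positive under library size alone (0.31), the microRNA total (0.31) and the snoRNA total (0.24), and, with a library left out, without control nuc replicate 2 (0.11) or 3 (0.19) and without siSSB nuc replicate 1 (0.12) or 2 (0.069). The range there was −0.42 to 0.19. In cyto no alternative passed either, and leaving out a library gave −0.20 to 0.78. The difference between nuc and cyto responses was 0.083 without siSSB cyto replicate 3 and otherwise below 0, with a range of −1.04 to 0.083. The nuc to cyto ratio stayed negative and past the threshold in 14 of 15 alternatives in each of control and siSSB cells. The exception was the microRNA total without rows of other classes, at −0.79 and −1.14, where most rows tested were called higher. Leaving out a library gave −3.96 to −3.18 and −4.61 to −3.54. The share of microRNA counts kept its sign and did not pass in any of 16 alternatives (p from 0.095 to 0.73).

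The number of list hairpins called in total RNA, 9 in the report, was 24 under library size alone, 25 under the snoRNA total, 14 with no filter beyond 1 count, 3 under the microRNA total, 3 with the replicate block and 0 under the microRNA total without rows of other classes, and 0 to 13 with a library left out. Between nuc and cyto it was 10 in control and 11 in siSSB cells (10 lower and 1 higher) under that last total, against 45 and 47, all lower. The count for the difference between responses was 1 with no filter and 0 to 1 with a library left out. Of all rows, the number called in total RNA was 186 and ran from 69 to 6016, in nuc it was 26 and ran from 0 to 67, in cyto it was 55 and ran from 2 to 248, between nuc and cyto it was 6242 and 6658 and reached 26435 and 25875, and for the difference it was 5 and ran from 1 to 24. Rows called higher in total RNA were 51 in the report, 628 under library size alone and 646 under the snoRNA total. They were 33 under the microRNA total and 9 under that total without rows of other classes. Between nuc and cyto this last total called 358 rows lower in control and 271 in siSSB cells. The cause of these shifts was not tested.

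With the replicate block, MIR340 was at 2.005 in total, −0.0074 in nuc, 0.39 in cyto, −3.43 and −4.09 between nuc and cyto in control and siSSB cells and −0.47 for the difference between responses. For the share, swapping within numbered pairs gave p = 0.5625 (exact permutation test). The block changed no call of MIR340. Whether a number marks more than a shared label is not known. The share of the 5p arm was not run, since the arm row cannot be separated from the hairpin. MIR340 had 10 to 21 counts in each nuc library, which limits the precision there.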

Other observations

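The G and C content of a hairpin can affect how well it is read, and that of MIR340 is low, at 38.9%. Among the 160 of 197 microRNA rows tested in total RNA that matched a RefSeq hairpin, 11.9% had a lower content, and the median was 50.9%. Across these rows the content and the log2 fold change in total RNA had a Spearman rho of −0.044, given as a description over rows of the same libraries. The 52 rows of lowest content had a median log2 fold change of 0.78 and the 54 rows of highest content one of 0.75. In nuc and cyto RNA 75.3% and 78.9% of the microRNA rows tested matched a hairpin, under the minimum of 80%. The values there cover too few of the rows for a check and are given as a description. The rho was 0.23 in nuc and 0.31 in cyto. Rows of lowest and highest content had median log2 fold changes of −0.03 and 0.21 in nuc. In cyto these medians were 0.10 and 0.44. Whether G and C content affects the MIR340 values was not tested.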
